A study of Homo sapiens with 21 samples.

Results

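The lysosomal genes described here are 43 genes of hydrolases, the acidifying proton pump, membrane and transport proteins and the MiT/TFE transcription factors, of 26809 genes with a matched transcript. They were selected on a list of named genes drawn up with the measured fold changes of the same knockout comparison known, and comprise 11 glycosidases, 5 sulfatases, 7 proteases, 5 lipid hydrolases with their activator, 5 proton pump genes, 7 membrane and transport proteins and 3 MiT/TFE factors. All 43 passed the filter on low counts that kept 13530 genes for testing. RNA-seq was done on 786-O, an established human line of clear cell renal cell carcinoma, grown in DMEM with fetal bovine serum. The groups were cells labelled JMJD6 KO with guide sg2, cells labelled JMJD6 KO with guide sg4, and cells labelled JMJD6 WT with the control guide sgCtrl, with 3 libraries each. JMJD6 is a 2-oxoglutarate-dependent oxygenase of the nucleus, and the series title links it to lipid metabolism. The labels do not say whether the cells were clones or pools, nor whether the triplicates were separate cultures, so the spread below is that between libraries. Titles and extraction text name guide infection, while the treatment text describes siRNA transfection, and the samples were taken as guide knockouts.

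Lysosomes break down macromolecules, organelles and endocytosed material with acid hydrolases, most of which reach them through mannose 6-phosphate receptors. A vacuolar proton pump (V-ATPase) keeps the lumen acid, and highly glycosylated membrane proteins line the organelle. TFEB, TFE3 and MITF bind E-box sequences in promoters of many lysosomal genes, and mTORC1, a kinase complex at the lysosomal surface, controls whether TFEB and TFE3 enter the nucleus.

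JMJD6 mRNA, in CPM (counts scaled by normalised library size), was 17.1, 16.1 and 17.3 with sg2 and 11.7, 14.4 and 10.7 with sg4, against 41.5, 40.9 and 44.4 with the control guide. The libraries held between 14224263 and 16300347 estimated counts, and the log CPM of any 2 libraries correlated across genes with r between 0.985 and 0.991. PAX8, a renal lineage factor, ranged from 246 to 319 CPM with sg2 and from 303 to 342 CPM with sg4, against 313 to 336 CPM in the controls, and all 6 renal markers listed were measured. Of these, 2 were called lower over both guides (33.3%, against 6.95% of all tested genes) and 0 higher. With sg2 alone 2 were called lower, and with sg4 alone 1. CDH16, a kidney cadherin called lower over both guides, had 14.2 to 15.02 CPM with sg2 and 14.7 to 16.1 CPM with sg4, against 23.2 to 24.9 CPM in the controls. GGT1, a brush border enzyme and the other, had 130.3 to 149 CPM with sg2 and 156 to 165 CPM with sg4, against 169 to 180.05 CPM. Of the 8 macrophage markers only CSF1R and CD68 passed the filter, and PTPRC had 3 counts in 1 sg4 library and 0 in the other 8. The summed level of the 8 was 47.3 to 52.5 CPM with sg2 and 48.6 to 57.6 CPM with sg4, against 54.7 to 69.5 CPM in the controls. Most of that sum was CD68, itself a lysosomal membrane protein, which was called lower (log2 fold change −0.28), while CSF1R was called higher (0.83). Both were also called with sg2 alone, and neither with sg4 alone. The 6 fibroblast markers summed to 17.1 to 21.9 CPM with sg2 and 17.6 to 28.3 CPM with sg4, against 26.6 to 75.1 CPM in the controls, with COL1A2, LUM and DCN highest in control 1. Of the 5 tested, COL1A2, LUM and ACTA2 were called lower with each guide. ACTA2 lay apart in all 3 controls, at 6.92 to 11.1 CPM with sg2 and 8.17 to 11.2 CPM with sg4, against 13.9 to 17.0 CPM. In TPM, a unit per transcript length, LUM did too, at 4.65 to 6.49 with sg2 and 4.50 to 6.21 with sg4, against 18.5, 8.11 and 7.90. COL1A2 overlapped, at 0 to 0.07 TPM with sg2 and 0 to 1.02 TPM with sg4, against 7.49, 0.53 and 0.05 TPM in the controls. In control 3 short genes were low relative to long ones, by −0.13 on the log2 scale between the shortest and longest of 4 equal bands of genes, while sg4 libraries 2 and 3 stood at 0.09 and 0.16 and the other 6 libraries between −0.03 and 0.00. Whether these differences contributed to the lysosomal results was not tested. Less RNA per cell and fewer cells of a type cannot be told apart in such bulk libraries.

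The promoters of the members were read for the E-box core CACGTG, for its extension TCACGTGA, and for that extension with a G before it and a C after it. The motifs are nested, and each is its own reverse complement, so that 1 search covers both strands. The RefSeq promoter table (GRCh38.p14), which holds 250 bases before to 50 bases after each start, matched 32 of the 43 members. A CACGTG stood in 11 of these 32 (34.4%), in 14 of 65 other listed lysosomal genes (21.5%) and in 1354 of the 10912 tested genes with a promoter (12.4%). TCACGTGA stood in 7 of 32 members (21.9%), 5 of 65 other lysosomal genes (7.69%) and 2.21% of tested genes, and the longest form in 3 of 32 (9.38%), 2 of 65 (3.08%) and 0.898%. The stretches shown are those of the 6 members called lower in the knockout comparison that carry a core, then 3 members that were not called and carry an extended motif. They lie before the start and run 5′ to 3′ on the gene's strand, with matches to the core or its extensions in capitals. A match describes the letters and is not evidence of binding.
GAA (chr17:80101521-80101580, plus strand): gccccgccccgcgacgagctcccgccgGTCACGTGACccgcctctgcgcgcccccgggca
CTSA (chr20:45891275-45891334, plus strand): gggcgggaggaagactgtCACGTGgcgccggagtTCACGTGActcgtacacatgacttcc
CTSD (chr11:1763942-1764001, minus strand): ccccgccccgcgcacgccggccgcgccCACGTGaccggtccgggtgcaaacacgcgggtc
DPP7 (chr9:137114734-137114793, minus strand): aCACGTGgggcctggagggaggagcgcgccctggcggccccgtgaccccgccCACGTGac
MCOLN1 (chr19:7522564-7522623, plus strand): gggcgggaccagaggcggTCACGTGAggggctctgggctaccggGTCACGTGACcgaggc
CLN3 (chr16:28492083-28492142, minus strand): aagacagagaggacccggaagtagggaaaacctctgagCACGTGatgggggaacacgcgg
GALNS (chr16:88857089-88857148, minus strand): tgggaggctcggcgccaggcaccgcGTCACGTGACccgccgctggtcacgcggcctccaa
ATP6V0D1 (chr16:67481184-67481243, minus strand): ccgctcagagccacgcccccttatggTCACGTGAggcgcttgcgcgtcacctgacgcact
LAMP1 (chr13:113297179-113297238, plus strand): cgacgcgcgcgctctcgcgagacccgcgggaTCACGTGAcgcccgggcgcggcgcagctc

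Levels of different genes were set side by side in TPM, a unit that is per transcript length. Averaged over the 9 libraries, the members ranged from 8.26 TPM for ARSB, a sulfatase of dermatan sulfate, to 4705 TPM for CTSD, the aspartic protease cathepsin D, with a median of 95.6 TPM. PSAP, the precursor of the saposins that activate sphingolipid hydrolases, followed at 1876 TPM. By class the highest levels were GUSB among glycosidases (141 TPM), IDS among sulfatases (78.8 TPM), ATP6AP1 among pump genes (191 TPM), LAMP1 among membrane proteins (380 TPM) and TFE3 among the MiT/TFE factors (73.7 TPM). The TPM of all 43 members summed to 10656, 10831 and 11133 with sg2 and 10906, 11412 and 11207 with sg4, against 12574, 12387 and 12826 with the control guide. All 6 knockout sums lay below the 3 control sums. Because the members were chosen with this comparison known, the sums, with or without CTSD, are a description only. CTSD alone held between 37.7% and 43.4% of a library's sum. Without it the sums were 6643 to 6722 TPM with sg2 and 6597 to 6664 TPM with sg4, against 7121 to 7276 TPM in the controls, and the groups again did not overlap. The deposited TPM lacks the normalisation used for CPM. PSAP, whose groups overlapped in CPM, averaged 1873 TPM with sg2 and 1814 TPM with sg4, against 1942 TPM in the controls. How much of the gap in the sums comes from scaling was not tested. GUSB and IDS have pseudogene copies with which reads may be shared, so their levels are uncertain.

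**Figure D1:**
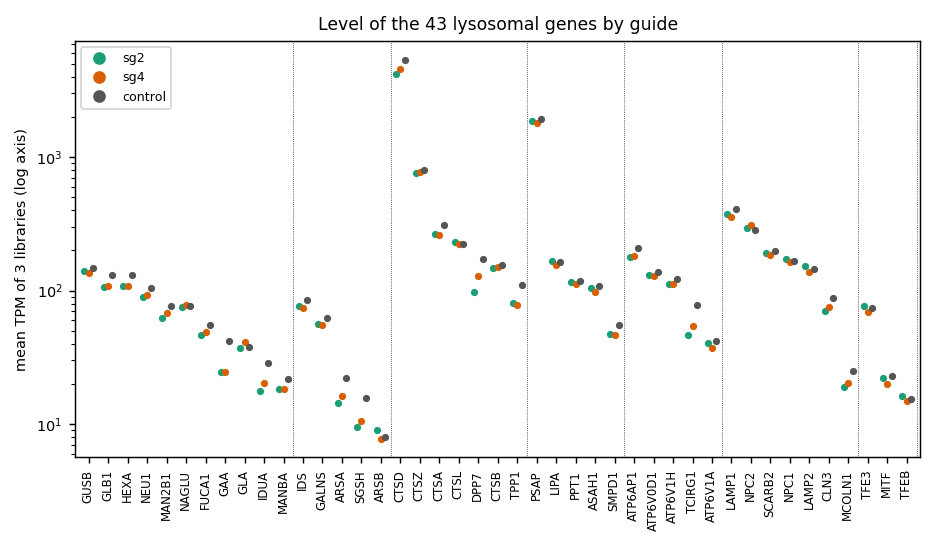
Mean TPM of 3 libraries (log axis) for each of the 43 lysosomal genes with sg2, sg4 and the control guide, ordered by control level within classes that dotted lines part: glycosidases, sulfatases, proteases, lipid hydrolases, proton pump, membrane proteins and MiT/TFE factors. CTSD and PSAP stand above every other member, and ARSB, at 8.26 TPM over all libraries, is the lowest.

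Which members fell was read from 1 fit over all genes (edgeR quasi-likelihood test), and calls needed a p under 0.05 after Benjamini-Hochberg adjustment. Because the members were chosen with this comparison known, their calls are a description and carry no test here. Over both guides together 14 of the 43 members were called lower (32.6%), 1 higher and 28 in neither direction, where 6.95% of all tested genes were called lower and 6.92% higher. The members' median log2 fold change was −0.08, against −0.01 over all tested genes, and 32 of 43 (74.4%) lay below 0, against 51.5% of all genes. With sg2 alone 16 members were called lower and 0 higher (5.36% and 5% of all genes), and with sg4 alone 8 lower and 1 higher (3.78% and 4.65%). The 8 called lower with sg4 were also called lower with sg2 (18.6% of members, against 2.22% of all genes), 0 were called higher with both (2.76% of all genes), and both guides share the same controls. By CPM, all 6 knockout libraries lay below all 3 controls in 16 members (37.2%, against 7.18% of all genes). In 1 member, NPC2, all 6 lay above them (7.76% of all genes). The 14 lower calls comprised 5 of 11 glycosidases, 2 of 5 sulfatases, 4 of 7 proteases, 0 of 5 lipid hydrolases, 1 of 5 pump genes, 2 of 7 membrane proteins and 0 of 3 MiT/TFE factors. Without control 1, the library with the most fibroblast marker RNA, 9 members were called lower, against 3.18% of all genes, and without control 3 and sg4 libraries 2 and 3 together 13 were, against 4.26% of all genes, a setting chosen after seeing the data.

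**Figure D2:**
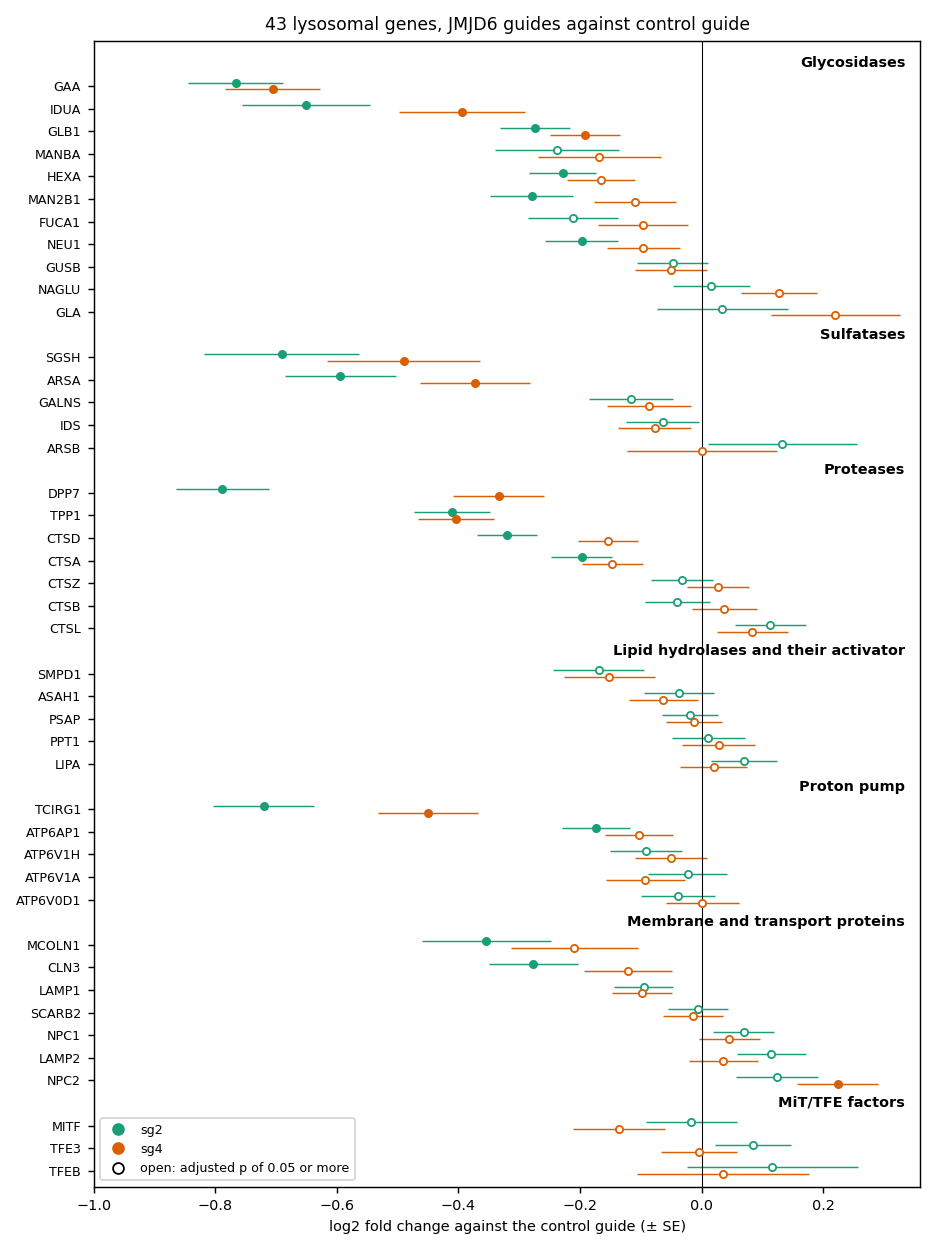
Log2 fold change against the control guide (± SE) of the 43 members with sg2 and sg4, by class; filled points were called at an adjusted p under 0.05 and open points were not. GAA, IDUA, GLB1, SGSH, ARSA, DPP7, TPP1 and TCIRG1 are filled for both guides, and the MiT/TFE factors and lipid hydrolases are open throughout.

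Among the glycosidases, GAA, which degrades lysosomal glycogen, had the largest decrease of all members over both guides. It had 39.2, 42.4 and 44.4 CPM with sg2 and 40.5, 44.3 and 46.6 CPM with sg4, against 77.2, 66.3 and 70.8 CPM in the controls. The groups were far apart, with a log2 fold change of −0.74 ± 0.066 over both guides (SE), −0.77 with sg2 and −0.71 with sg4. IDUA, which removes iduronic acid from heparan and dermatan sulfate, had 19.5, 16.7 and 18.2 CPM with sg2 and 21.4, 23.6 and 20.1 CPM with sg4, against 30.6, 25.4 and 29.6 CPM in the controls. All 6 knockout libraries were below the controls, with a log2 fold change of −0.52 ± 0.089 (SE), −0.65 with sg2 and −0.39 with sg4. GLB1, the acid β-galactosidase, had 127, 133 and 124 CPM with sg2 and 138, 129 and 139 CPM with sg4, against 156, 157 and 149.8 CPM in the controls. The groups did not overlap, and the log2 fold change was −0.23 ± 0.049 (SE). HEXA, the α-subunit of β-hexosaminidase, and MAN2B1, a lysosomal α-mannosidase, were also called lower, at −0.20 ± 0.048 and −0.19 ± 0.058 on the log2 scale (SE). HEXA was no longer called without control 1, and MAN2B1 not without control 1, control 2, sg2 library 2 or sg2 library 3.

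The other 6 glycosidases were not called over both guides, with log2 fold changes from −0.20 for MANBA, the lysosomal β-mannosidase, to 0.13 for GLA, the α-galactosidase. GUSB, the β-glucuronidase and the glycosidase of highest level, had 134, 129 and 143 CPM with sg2 and 133, 131 and 140.4 CPM with sg4, against 143, 134 and 143 CPM in the controls. Its groups overlapped, at a log2 fold change of −0.05 ± 0.051 (SE). NEU1, the lysosomal sialidase, was called lower with sg2 (−0.20 ± 0.061) and not with sg4 (−0.10 ± 0.060, log2 scale, SE). FUCA1, a fucosidase, and NAGLU, which acts on heparan sulfate, stood at −0.15 ± 0.064 and 0.07 ± 0.055 on the same scale.

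SGSH and ARSA were the sulfatases called lower. SGSH, the N-sulfatase of heparan sulfate, had 10.9, 12.1 and 14.7 CPM with sg2 and 12.4, 16.3 and 14.5 CPM with sg4, against 21.7, 19.8 and 19.1 CPM in the controls. Each knockout library was below every control, with a log2 fold change of −0.59 ± 0.11 (SE), −0.69 with sg2 and −0.49 with sg4. ARSA, which removes the sulfate from sulfatide, had 30.9, 25.5 and 32.5 CPM with sg2 and 32.5, 37.8 and 33.6 CPM with sg4, against 44.0, 43.9 and 46.6 CPM in the controls. Its groups did not overlap either, and the log2 fold change was −0.48 ± 0.077 (SE). IDS, the iduronate sulfatase, had 183, 172 and 183 CPM with sg2 and 186, 162 and 185 CPM with sg4, against 186, 182 and 194 CPM in the controls. The groups overlapped, at −0.07 ± 0.052 on the log2 scale (SE). GALNS, a sulfatase of keratan sulfate, stood at −0.10 ± 0.060 and ARSB at 0.07 ± 0.11 (log2 fold change, SE), both uncalled.

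DPP7, a dipeptidyl peptidase, was the protease with the largest decrease. It had 73.3, 65.9 and 67.8 CPM with sg2 and 80.8, 98.7 and 104 CPM with sg4, against 122, 122 and 113 CPM in the controls. The 3 groups formed 3 separate ranges, with sg2 lowest. The log2 fold change was −0.79 ± 0.076 with sg2 and −0.33 ± 0.075 with sg4 (SE). The difference of sg4 from sg2 was 0.45 ± 0.077 on the log2 scale (SE, edgeR adjusted p = 0.0150 over all tested genes). Each sg4 library was above each sg2 library. The members were chosen with knockout fold changes of the same libraries known, and this contrast is not independent of those. DPP7 was the single member called between the guides, where 0.0443% of all tested genes were called higher with sg4 and 0.0148% lower. That call did not hold when sg2 library 1, sg2 library 3, sg4 library 2 or sg4 library 3 was left out (edgeR adjusted p of 0.119, 0.0676, 0.146 and 0.270).

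TPP1, a tripeptidyl peptidase, had 134, 137 and 149 CPM with sg2 and 144, 140.3 and 137 CPM with sg4, against 183, 171 and 202 CPM in the controls. Both guides gave nearly the same decrease, at −0.41 ± 0.063 with sg2 and −0.40 ± 0.063 with sg4 on the log2 scale (SE), and no knockout library reached a control. CTSD had 3904.5, 4091 and 4286 CPM with sg2 and 4197, 4834 and 4759 CPM with sg4, against 5067, 5097 and 5175 CPM in the controls. All knockout libraries were lower, with a log2 fold change of −0.24 ± 0.042 (SE), called with sg2 (−0.32) and not with sg4 (−0.15). CTSA, a carboxypeptidase that also protects lysosomal galactosidase and sialidase, was called lower at −0.17 ± 0.043 on the log2 scale (SE) and lost its call without control 1. The cysteine cathepsins CTSB, CTSL and CTSZ were not called, with log2 fold changes of 0.00 ± 0.046, 0.10 ± 0.051 and 0.00 ± 0.044 (SE). CTSL may share reads with pseudogene copies.

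**Figure D3:**
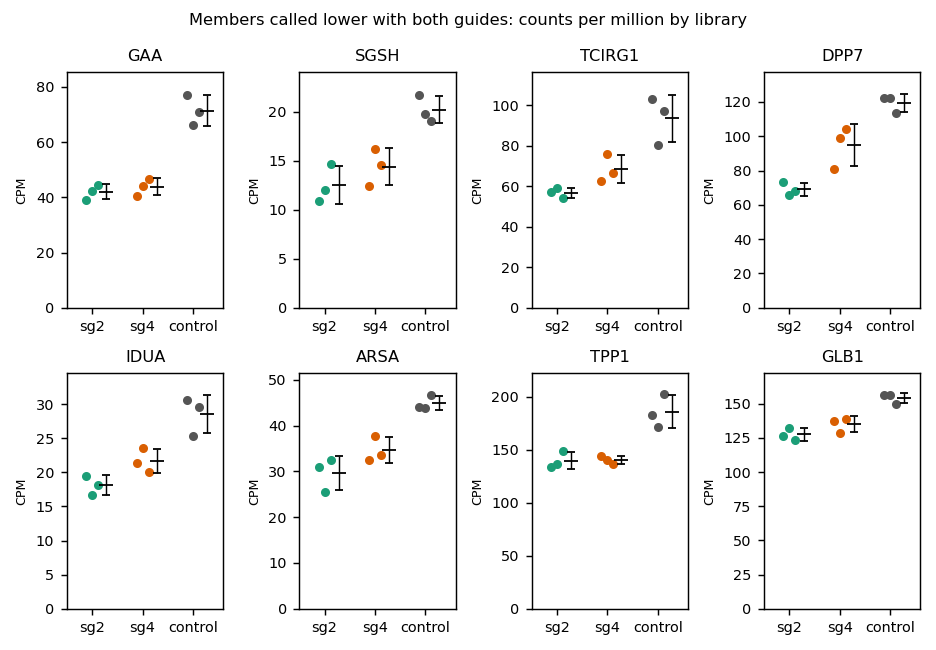
CPM by library (points), with mean ± SD of 3 libraries beside them, for the 8 members called lower with both guides, with sg2 left, sg4 in the middle and the control guide right. In each panel the 6 knockout libraries lie below the 3 controls, and for DPP7 the sg2 libraries (65.9 to 73.3 CPM) also lie below the sg4 libraries (80.8 to 104 CPM).

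None of the 5 lipid hydrolase genes was called in either direction with either guide. SMPD1, the acid sphingomyelinase, was the lowest at −0.16 ± 0.064 and LIPA, the acid lipase of cholesteryl esters and triglycerides, the highest at 0.04 ± 0.047 (log2 fold change in the mean of both guides, SE). PSAP had 2515, 2689 and 2568 CPM with sg2 and 2462, 2685 and 2662 CPM with sg4, against 2672, 2622 and 2582 CPM in the controls. Its groups overlapped, at a log2 fold change of −0.02 ± 0.040 (SE). PPT1, which removes palmitate from proteins, and ASAH1, the acid ceramidase, stood at 0.02 ± 0.052 and −0.05 ± 0.049 on the same scale.

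TCIRG1, which encodes the a3 subunit of the pump's membrane sector, was the pump gene called lower. It had 57.1, 59.0 and 54.2 CPM with sg2 and 62.8, 76.2 and 66.5 CPM with sg4, against 103, 80.4 and 97.0 CPM in the controls. The groups did not overlap, with sg4 library 2 and control 2 the closest, and the log2 fold change was −0.59 ± 0.070 (SE), −0.72 with sg2 and −0.45 with sg4. ATP6AP1, an accessory subunit of the pump, had 168, 181 and 172 CPM with sg2 and 190.4, 177 and 179.7 CPM with sg4, against 196, 192 and 200.02 CPM in the controls. All 6 knockout libraries were below the controls, but the gene was called only with sg2 (−0.17 ± 0.055) and not in the mean of both guides (−0.14 ± 0.048, log2 scale, SE). ATP6V0D1, of the membrane sector, and ATP6V1A and ATP6V1H, of the cytosolic sector, were uncalled, with log2 fold changes of −0.02, −0.06 and −0.07.

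In the mean of both guides MCOLN1 and CLN3 were the membrane proteins called lower, and NPC2 was the 1 member called higher. With sg2 alone 2 of the 7 genes of this class were called lower and 0 higher. With sg4 alone 0 were called lower and 1 higher, so none was called with both guides. MCOLN1, the calcium channel TRPML1, had 16.1, 19.2 and 19.8 CPM with sg2 and 20.9, 21.2 and 18.7 CPM with sg4, against 22.9, 23.1 and 24.4 CPM in the controls. The log2 fold change was −0.28 ± 0.090 (SE) and the groups did not overlap, though the values lay close. CLN3, a multispanning membrane protein mutated in juvenile Batten disease, had 57.7, 54.4 and 62.5 CPM with sg2 and 62.5, 64.0 and 68.1 CPM with sg4, against 74.0, 72.5 and 64.9 CPM in the controls. Only sg4 library 3 lay above a control, control 3, and the log2 fold change was −0.20 ± 0.062 (SE). NPC2, a soluble cholesterol carrier of the lumen that passes cholesterol to NPC1, had 101, 93.8 and 94.9 CPM with sg2 and 96.6, 105 and 109.5 CPM with sg4, against 93.4, 91.1 and 81.5 CPM in the controls. In CPM every knockout library was above every control, sg2 library 2 by less than 1 CPM, and the log2 fold change was 0.17 ± 0.058 (SE). In TPM the NPC2 groups overlapped, with control 1 at 297 TPM above sg2 libraries 2 and 3 at 288 and 289 TPM. All 3 calls were unstable to single libraries. When each of the 9 libraries was left out in turn, MCOLN1 was called in 4 fits, CLN3 in 3 and NPC2 in 3. NPC2 was also not called after correction for the trend with transcript length, where its log2 fold change was 0.09.

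LAMP1, a major glycoprotein of the lysosomal membrane, had 443, 451 and 445 CPM with sg2 and 431, 456 and 449 CPM with sg4, against 472, 474 and 484 CPM in the controls. Its groups did not overlap, while the log2 fold change of −0.10 ± 0.042 (SE) was not called. LAMP2, its relative, stood at 0.08 ± 0.049, SCARB2, an integral membrane protein of the lysosome, at −0.01 ± 0.043, and NPC1, the cholesterol transporter, at 0.06 ± 0.044 (log2 fold change, SE), none of them called.

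None of the 3 MiT/TFE factors was called with either guide or in the mean of both. TFEB had 15.005, 15.98 and 18.7 CPM with sg2 and 12.1, 15.2 and 19.7 CPM with sg4, against 15.3, 14.4 and 16.1 CPM in the controls. The 3 ranges overlapped, and the log2 fold change was 0.08, with a 95% interval from −0.16 to 0.32. TFE3 had 128, 119.9 and 136 CPM with sg2 and 113, 124 and 125 CPM with sg4, against 125, 119 and 118 CPM in the controls. The groups overlapped, and the log2 fold change was 0.04, with an interval from −0.07 to 0.15. MITF had 49.1, 49.9 and 53.4 CPM with sg2 and 51.1, 44.9 and 44.3 CPM with sg4, against 52.3, 51.5 and 50.4 CPM in the controls. Here sg4 libraries 2 and 3 were lowest, and the log2 fold change was −0.08, with an interval from −0.20 to 0.05. In level, TFE3 was at 77.0 ± 5.64 TPM with sg2 and 69.7 ± 2.13 TPM with sg4, against 74.2 ± 2.14 TPM in the controls, above MITF at 22.3 ± 1.15, 19.8 ± 2.26 and 23.0 ± 0.287 TPM in the same groups and TFEB at 16.3 ± 1.89, 14.9 ± 3.22 and 15.4 ± 1.18 TPM (SD, n = 3 each). mRNA levels do not show how much of these proteins was in the nucleus.

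**Figure D4:**
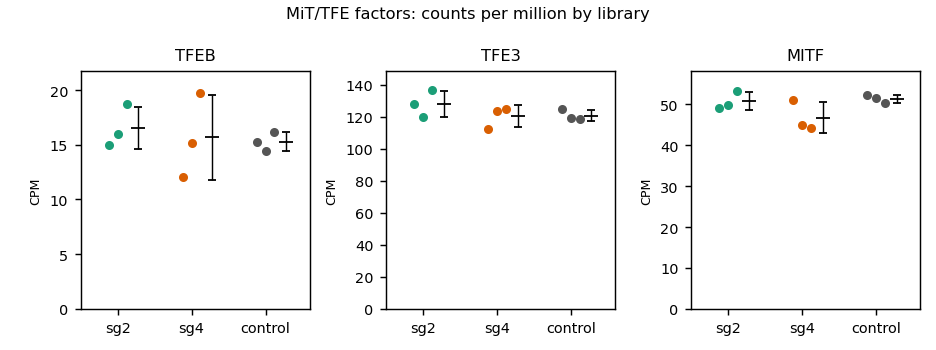
CPM by library (points), with mean ± SD of 3 libraries beside them, of TFEB, TFE3 and MITF with sg2, sg4 and the control guide. The groups overlap in all 3 panels, and the 2 lowest MITF values (44.3 and 44.9 CPM) are sg4 libraries.

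Among the 32 members with a promoter in the table, CACGTG stood in 6 of the 11 called lower (54.5%), GAA, CTSA, CTSD, DPP7, MCOLN1 and CLN3, and in 5 of the 20 not called (25%). The members were chosen with the comparison behind these calls known, so the split is a description and carries no test. No CACGTG stood in the window of NPC2, or in those of IDUA, GLB1, MAN2B1, TPP1 and TCIRG1, which were called lower. TCACGTGA stood in 4 of the 11 called lower and 3 of the 20 not called. Counting bases before the start alone, it stood in 3 of the 11 (27.3%) and 3 of the 20 (15%), as CLN3 then held the core only. LAMP1 and GALNS, both uncalled, carry extended motifs as well, and the LAMP1 window held 6 cores, more than that of any other member.

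Lysosomal genes outside the members were counted beside them. They were what remained once the members had been chosen with the comparison known. Their shares therefore cannot show whether lysosomal genes as a whole moved. Of 79 tested hydrolases, pump subunits and membrane proteins that are not members, 7 were called lower (8.86%) and 3 higher (3.80%), with a median log2 fold change of 0.00. Of all tested genes 6.95% were called lower and 6.92% higher. Of the members, which were chosen with the comparison known, 32.6% were called lower. After correction for the trend with transcript length 12 of the 79 were called lower (15.2%), against 6.80% of all genes. Of 31 further hydrolases 4 fell and 0 rose. ACP2, the lysosomal acid phosphatase, and DNASE2, the acid DNase, fell by 0.32 ± 0.087 and 0.18 ± 0.058 on the log2 scale (SE, edgeR adjusted p = 0.0153 and 0.0363). ACP2 lost its call without control 1 or control 3, and DNASE2 in 6 of the 9 fits that left out a library. MAN2B2, an α-mannosidase, also fell and lost its call in 4 of those fits.

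Of 17 further pump subunits 0 fell and ATP6V1C2, a C subunit of the cytosolic sector, rose by 0.32 ± 0.075 on the log2 scale (SE, edgeR adjusted p = 0.00548). It had 33.5, 32.2 and 32.1 CPM with sg2 and 34.0, 31.9 and 30.7 CPM with sg4, against 25.9, 25.5 and 26.6 CPM in the controls, and was higher in 6 of 6 knockout libraries. Of 31 further membrane proteins 3 fell and 2 rose. ABCD4, a transporter in lysosomal cobalamin export, fell by 0.51 ± 0.097, and SIDT2, a lysosomal nucleic acid transporter, by 0.40 ± 0.094 on the log2 scale (SE, edgeR adjusted p = 7.63e-04 and 0.00553). The third was CLCN7, the chloride-proton exchanger, at −0.26 ± 0.048. LAPTM5, best known from blood cells, rose by 1.29 ± 0.40 on the log2 scale (SE, edgeR adjusted p = 0.0322) from few counts. It had 26, 24 and 21 counts with sg2 and 33, 14 and 14 with sg4, against 11, 8 and 7 in the controls, and lost its call in 6 of the 9 fits that left out a library. TPCN1, a two-pore channel, was the other that rose, and it too lost its call in 6 of those fits.

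Genes that deliver enzymes to the lysosome or act beside it are summarised by list. These lists too were chosen with earlier results of these data known, so their shares and p-values are a description and not a test. Of 10 sorting genes 2 fell (20%, against 6.95% of all genes) and 0 rose. With sg2 alone 1 fell (10%, against 5.36% of all genes), and with sg4 alone 1 fell (10%, against 3.78%). GNPTG, a subunit of the phosphotransferase that starts the mannose 6-phosphate tag, fell by 0.43 ± 0.078 (SE, edgeR adjusted p = 4.84e-04), with 37.3, 31.3 and 36.3 CPM with sg2 and 40.7, 52.1 and 42.8 CPM with sg4, against 55.2, 56.1 and 49.7 CPM in the controls. Its knockout and control values overlapped at 1 library, sg4 library 2. IGF2R, the large mannose 6-phosphate receptor, fell by 0.14 ± 0.048 (SE, edgeR adjusted p = 0.0474) and lost its call in 7 of the 9 fits that left out a library. It averaged 90.3 TPM with sg2 and 75.8 TPM with sg4, against 94.8 TPM in the controls. Of 20 autophagy genes 4 fell (20%) and 0 rose, while with sg2 alone 2 fell and 2 rose. Over both guides ULK1, the kinase that starts autophagy, stood at −0.34 ± 0.059, its relative ULK2 at −0.36 ± 0.12 and VPS11, a tethering subunit, at −0.26 ± 0.070 (log2 fold change, SE, edgeR adjusted p = 3.20e-04, 0.0475 and 0.0158). ULK2 lost its call in 8 of the 9 such fits, and VPS11 without control 1 or control 3, and ATG9A, the fourth, lost its call in 6. Of 19 genes of mTORC1 and TFEB regulation 5 fell (26.3%) and 0 rose. TSC2 and TSC1, which restrain mTORC1, stood at −0.31 ± 0.059 and −0.24 ± 0.068, and FLCN, which acts on the Rag GTPases, at −0.23 ± 0.064 (log2 fold change, SE, edgeR adjusted p = 8.82e-04, 0.0204 and 0.0155). RPTOR and FNIP1 were the others that fell, and FNIP1 lost its call in 3 of the 9 fits. FLCN lost its call without control 1, and TSC1 without control 1, control 3 or sg4 library 3.

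**Figure D5:**
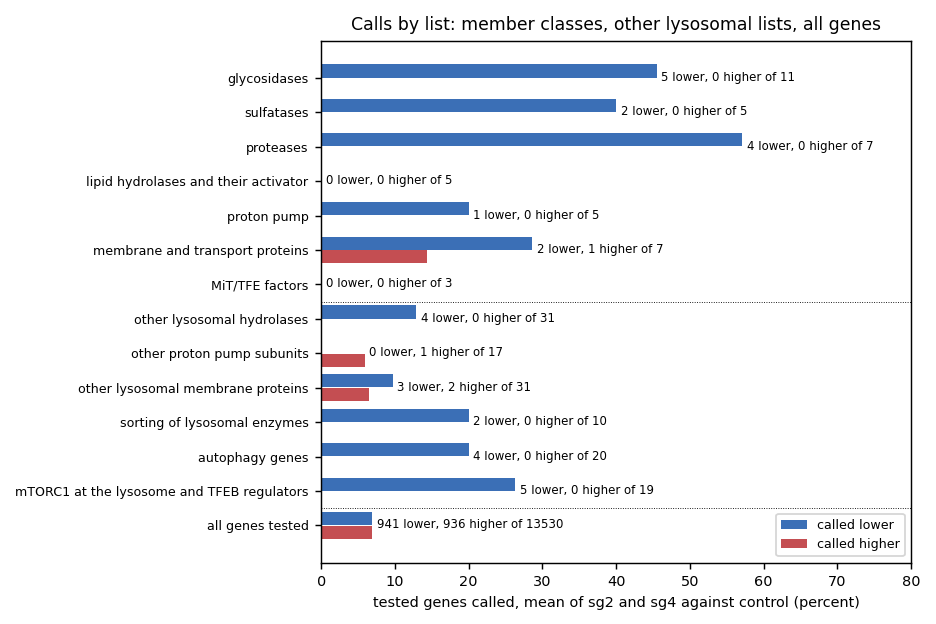
Percent of tested genes called lower (blue) and higher (red) in the mean of sg2 and sg4 against control, for the 7 member classes (top), 6 further lists (middle) and all tested genes (bottom), with counts beside the bars. The glycosidases, sulfatases and proteases among the members have shares of 40% to 57.1% called lower, against 12.9% of the other hydrolases and 6.95% of all genes. The members were chosen with this comparison known, so the gap is a description and not a test of the classes.

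The direction of the calls over all genes went with transcript length, and the members' place in that trend was as follows. In 4 equal bands of tested genes, from short to long, 3.75%, 6.45%, 7.63% and 9.99% were called lower and 10.9%, 6.30%, 5.91% and 4.52% higher. The members had a median length of 2590 bases, against 3041 bases over all tested genes, and 7, 21, 11 and 4 of them lay in the 4 bands, of which 2, 7, 5 and 0 were called lower. After correction for the trend 16 members were called lower and 0 higher, against 6.80% and 7.35% of all genes.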

How the data were processed

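RNA-seq of 9 libraries from 786-O cells entered the analysis, with groups taken from the labels. Per the file headers, the deposited files give a length, an effective length, an estimated count and a TPM for each RefSeq transcript in the layout of Salmon. The deposited estimated counts were whole throughout; how they were rounded is not given in the sources used here. Per the file headers, the deposited TPM values are relative to effective length. Tools named in the submitters' processing notes include cutadapt 1.12, STAR 2.5.2b, Salmon and DESeq2, with no role given. Strand setting and annotation are not given in the sources used here, so overlapping genes on opposite strands cannot be told apart.

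Estimated counts and TPM were summed per gene through the RefSeq gene table of GRCh38.p14, used for names. Of 60422 transcripts 58031 matched (96.0%), and the unmatched ones held from 1.33% to 1.65% of a library's counts. The members comprise 114 transcripts and isoforms were not compared. All 9 libraries entered 1 edgeR 4.0.16 quasi-likelihood fit (R 4.3.3, limma 3.58.1) with TMM normalisation, after filterByExpr, without a replicate term. Contrasts were each guide against control, their mean against control, and sg4 against sg2, 2-sided, with Benjamini-Hochberg adjustment over the 13530 genes. The SE is the log2 fold change divided by the square root of its F statistic, and 95% intervals are ± 1.96 SE. CPM uses TMM-scaled library sizes. The fit was tested on simulated data. Members and lists were chosen with earlier results of these data known, and p-values measure the spread between libraries. Members given with every library were the 3 largest called changes per class, the MiT/TFE factors, the highest TPM per class and any member called between the guides, and up to 3 called genes came from each other list. CLCN7, TPCN1, MAN2B2, ATG9A, RPTOR, FNIP1 and the other members were named beyond that rule, after their values were seen. Alternatives used RLE size factors, library totals, no filter, DESeq2 1.42.0, a replicate block, a correction for transcript length and each library left out. The ChIP peak lists were not used. The result of 1 other listed hydrolase is not reported here.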

Additional observations from a re-analysis of the deposited data

Results flagged for a closer look

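DPP7 was flagged because its change differed between the guides in a direct test: the log2 difference of sg4 from sg2 was 0.45 ± 0.077 (SE, edgeR adjusted p = 0.0150), with each of 3 sg4 libraries above each of 3 sg2 libraries. It was not called without sg4 library 3 (0.38, adjusted p = 0.270), and without control 3 and sg4 libraries 2 and 3 together the difference was 0.23 (adjusted p = 0.814).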

How the results depend on the processing

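Of the 14 members called lower in the mean of both guides, 9 kept the call in each of the 9 fits that left out a library, and these include all 8 called with both guides. Members called lower numbered from 9 to 14 over these fits for both guides combined, between 9 and 17 for sg2 and between 5 and 9 for sg4. Members called higher numbered 0 to 1 in the mean, 0 to 1 with sg4 and 0 to 2 between the guides. All genes called lower numbered from 435 to 925 and higher from 503 to 953, with the lowest values of both without control 1. The other lysosomal genes called lower numbered from 5 to 7 and higher from 1 to 3. The call of NPC2, with 0 members then higher in the mean and with sg4, was lost with library totals, the replicate block, the length correction and the 3 libraries left out together. The length correction raised the other lysosomal genes called lower to 12 of 79 (15.2%, against 6.80% of all genes). Without a filter 2 members were called higher between the guides, CTSD beside DPP7. With control 3, sg4 2 and sg4 3 left out together, chosen after seeing the data, 595 genes were called lower and 521 higher, 5 members lower with sg4, 0 members between the guides and 1 other lysosomal gene higher. Same-numbered libraries did not deviate together (r from −0.141 to 0.052). With 3 libraries per group this cannot exclude a shared culture or preparation, and the labels do not state any pairing. With the replicate block 12 members were called lower in the mean, 13 with sg2 and 8 with sg4, 0 were called higher (in the mean 5.64% of all genes were called lower and 5.65% higher), and DPP7 between the guides had an edgeR adjusted p of 0.0765. DESeq2 called 15 members lower in the mean (6.53% of all genes), RLE factors 14 (6.85%), library totals 16 (7.76%) and no filter 14 (5.67%). Counting bases before the start alone left TCACGTGA in 6 members in place of 7. No called value of a member, or of a called gene of the other lysosomal lists, changed direction in the mean of both guides under these alternatives. The cell type markers and the calls of single guides were not checked for direction. The causes of the lost calls were not tested. The planned wider window for peaks near members was not run, because no annotation of the peaks' build was used here. TFEB and SGSH, both with few counts, have the widest errors among the members.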
